A study of Homo sapiens with 20 samples.

Results

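The 44 genes described here encode the parts of focal adhesions and of the actin cytoskeleton: integrins, the proteins of the adhesion plaque, actins and their cross-linkers, ERM linkers, myosin II, tropomyosins, small GTPases of cell contraction with the ROCK kinases, and the transcription factor SRF. The genes were taken by name, they take in processes under the control of the SLK kinase, and all 44 were found among the 20033 protein-coding genes of GENCODE release 44 on GRCh38. They were read in chromatin immunoprecipitation sequencing (ChIP-seq) of PC-3, an established human prostate cancer cell line. An antibody against RNA polymerase II (here POL2) and another against c-Myc (here MYC) were used in wild-type cells (WT) and in cells with SLK knocked out (SLK-KO), with 3 libraries of each antibody and genotype, called biological replicates in the series' design. All SLK-KO libraries carry the cell name PSD10, and whether these cells are a single clone is not given in the sources used here.

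Each library had a list of summits, the 1-bp positions where the peaks called in that library were highest, with the authors' own score. The POL2 lists held 17126, 5047 and 9925 summits in WT replicates 1 to 3 and 19017, 15436 and 16298 in SLK-KO. The MYC lists held 365, 201 and 267 summits in WT and 1218, 1420 and 988 in SLK-KO. Read depth is unknown, and list length differed between the genotypes, so that a gene missing from a short list is not shown to be unbound. Comparisons were therefore made with full lists and with lists of equal length, the 5047 best-scored summits of each POL2 list and the 201 best-scored of each MYC list. The epithelial keratin genes KRT8, KRT18 and KRT19 carried POL2 near a transcription start site (TSS), at most 1 kb away, in all 3 libraries of each genotype. EPCAM had one in 1 WT and 3 SLK-KO libraries, CDH1 and the endothelial marker PECAM1 in 1 WT library each, and 4 leukocyte markers and 2 further endothelial markers in none. The SLK gene itself carried POL2 at its promoter in 2 libraries of WT cells and in all 3 of SLK-KO cells, and a summit list cannot show whether its product was lost.

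Cells hold on to the matrix through integrins, transmembrane receptors whose cytoplasmic tails gather a plaque of adaptor and signalling proteins and, through talin, vinculin and alpha-actinin, the actin filaments. RhoA and its ROCK kinases set the tension of these filaments through myosin II, while the ERM proteins ezrin, radixin and moesin, which SLK can phosphorylate, tie filaments to the plasma membrane. SRF, with actin-sensing cofactors, binds CArG boxes in the promoters of many actin cytoskeleton genes.

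POL2 was found at the promoters of most of these genes in both genotypes. With full lists, a summit lay within 1 kb of an annotated TSS of 39, 27 and 36 of the 44 genes in WT replicates 1 to 3 and of 39, 38 and 39 in SLK-KO, or 34 ± 6.24 and 38.7 ± 0.577 genes (SD, n = 3 each). WT replicate 2, with the shortest list, stood apart, and the other 5 libraries lay between 36 and 39. The shares of all protein-coding genes with such a summit were 47.3%, 19.1% and 35.3% in WT and 49.0%, 45.1% and 47.2% in SLK-KO. The genotypes differed by 4.67 genes on average, and by 1.17 without WT replicate 2. In lists of equal length the numbers were 26, 27 and 30 in WT and 29, 31 and 30 in SLK-KO, so that the genotypes overlapped.

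**Figure D1:**
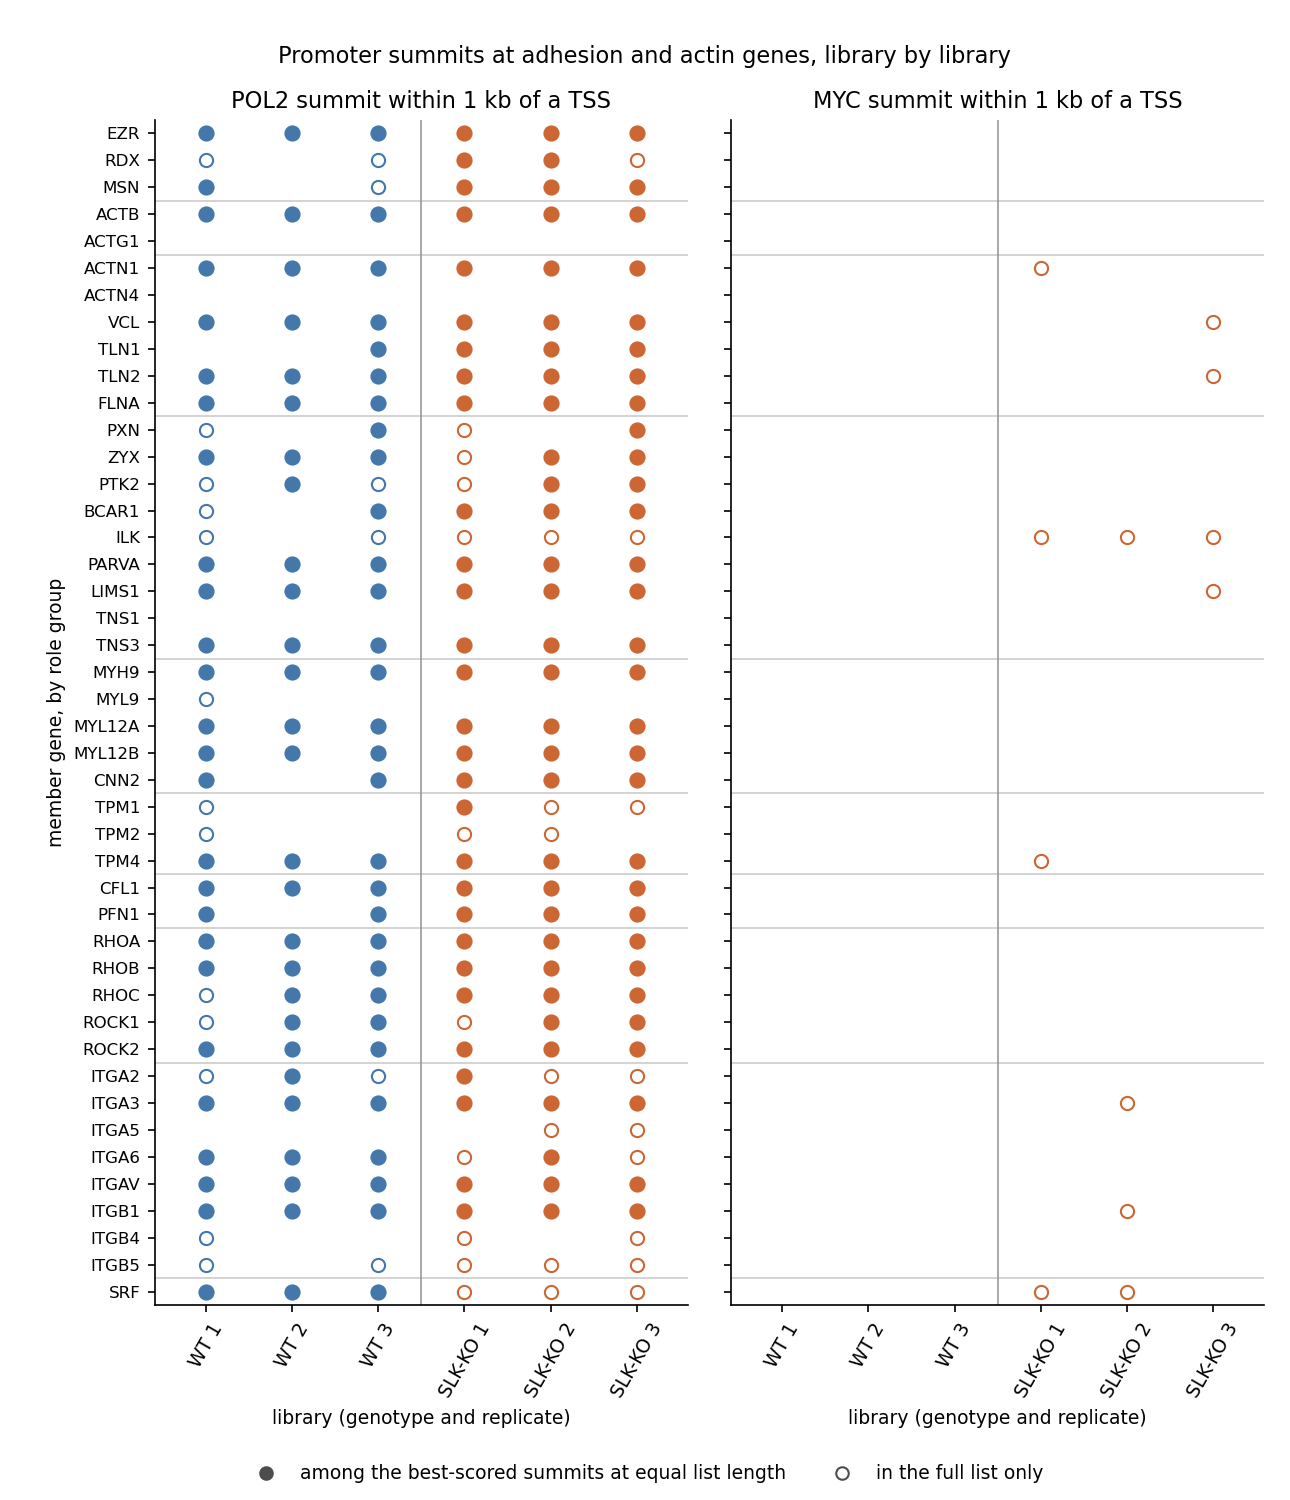
Each row is a gene, in role groups divided by grey lines, and each column a library; a filled point marks a summit within 1 kb of a TSS among the best-scored summits at equal list length, and an open point a summit in the full list only. POL2 (left) fills most rows in both genotypes, ACTG1, ACTN4 and TNS1 stay empty, and MYC (right) appears only in SLK-KO libraries, at 9 genes, always as open points.

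A POL2 promoter summit was listed in all 6 libraries for 27 of the 44 genes (61.4%) and for 18.05% of all protein-coding genes. It was listed in at least 1 library for 41 (93.2%, against 53.7% of all). The genes have a median of 12.5 annotated start sites, against 5 over all protein-coding genes, so the count was repeated at 1 start per gene. With the canonical start site alone, 22 genes (50%) had a summit in all 6 libraries, against 16.3% of all protein-coding genes, and 38 (86.4%) had it in at least 1, against 50.6%. Of the 14 genes listed in some libraries but not in all, RDX, MSN, BCAR1, ILK, CNN2, PFN1 and ITGB5 lacked a summit only in WT replicate 2. TLN1, PXN and TPM1 were listed in 4 libraries, TPM2 and ITGB4 in 3, ITGA5 in 2 and MYL9 in 1.

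**Figure D2:**
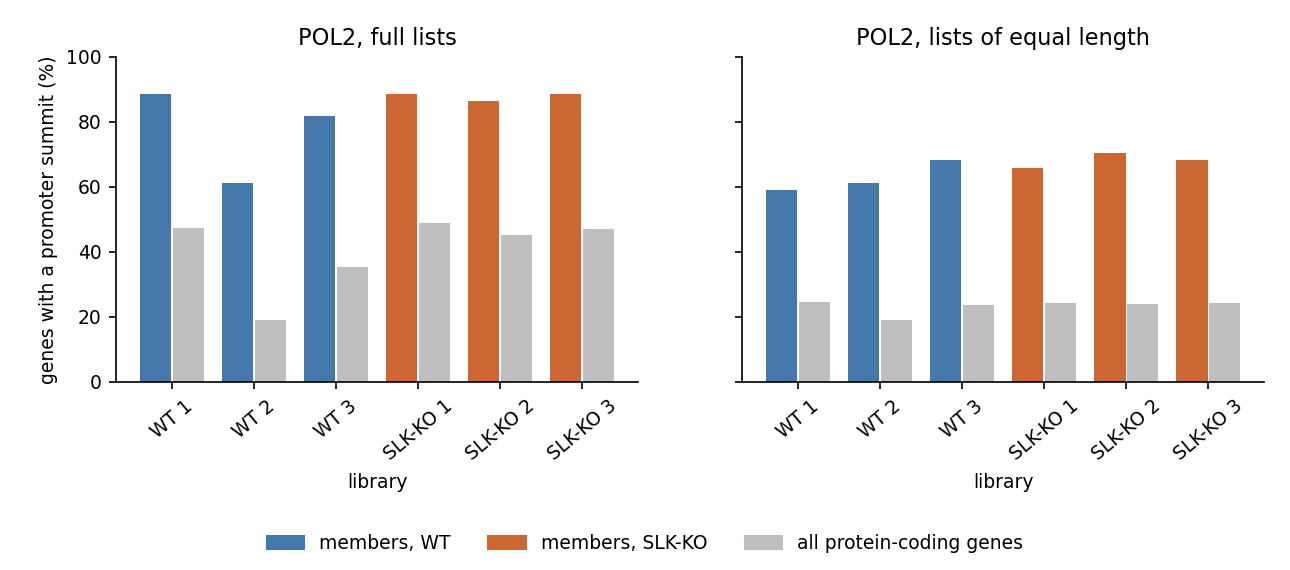
Percent of the genes that had POL2 at a promoter (a summit at most 1 kb from a start) in each library, for the 44 adhesion and actin genes and for all protein-coding genes, with full lists and with lists of equal length. The 44 genes lie above all protein-coding genes in every library, at 61.4% to 88.6% against 19.1% to 49.0% with full lists.

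No gene was listed in 3 libraries of one genotype and 0 of the other with full lists. Over all protein-coding genes, 309 (1.54%) were listed in 3 SLK-KO and 0 WT libraries and 2 (0.00998%) the other way. A complete split of 3 against 3 libraries has an exact permutation p of 0.1 (20 relabellings, two-sided), the smallest the design allows, so no gene in any comparison could fall below 0.05 and the splits are counts to be read beside their share of all genes. TPM1 without WT replicate 1, TLN1 without WT replicate 3 and ITGA5 without SLK-KO replicate 1 would each have made the count 1. In lists of equal length SRF was the single gene split, in 3 WT and 0 SLK-KO libraries (0.454% of all protein-coding genes), and none was split the other way (0.998% of all). SRF was no longer split with lists of 0.5 times that length. Without SLK-KO replicate 2, ITGA6 joined SRF, and the count the other way was 1 without WT replicate 1 (MSN), 2 without WT replicate 3 (TLN1 and BCAR1) and 1 without SLK-KO replicate 3 (RDX).

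The integrins are the receptors of the system, each an alpha and a beta chain. ITGB1, the beta chain shared by most matrix-binding pairs, was the best ranked of them. Rank 1 is the best-scored summit of a list, and values are given in the order of replicates 1, 2 and 3. The best ITGB1 promoter summit ranked 285, 951 and 237 in the WT POL2 lists and 377, 330 and 294 in SLK-KO. WT replicate 2 was the low one, and its best summit lay 639 bp upstream of the canonical TSS where the other 5 lay 41 to 61 bp downstream. The laminin receptor chain ITGA3 ranked 359, 412 and 633 in WT and 540, 432 and 655 in SLK-KO, with overlapping groups. ITGAV, the vitronectin receptor chain, ranked 844, 3234 and 1653 in WT and 2787, 4904 and 4401 in SLK-KO, and again the groups overlapped. ITGA2 and ITGA6 were listed in all 6 libraries at ranks from 1174 to 12551. ITGB5 was listed at ranks from 6373 to 9214 in 5 libraries, and ITGB4, which pairs with ITGA6 in hemidesmosomes, at ranks from 11496 to 15963 in 3. ITGA5, the fibronectin receptor chain, was listed only in SLK-KO replicates 2 and 3, at ranks 10173 and 10907, far past the length of the shortest list.

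Vinculin, which couples talin to actin under load, had the best-ranked promoter of all 44 genes. The VCL summit (ENSG00000035403.18, GRCh38 chromosome 10, 73995193 to 74121363) ranked 19, 20 and 21 in WT and 21, 21 and 23 in SLK-KO. Its position lay 26 to 47 bp downstream of the canonical TSS, in the 5′ UTR, in all 6 libraries, a range of 21 bp. The groups touched at rank 21. The 250 bases before the RefSeq start (GRCh38.p14, chr10:73997866-73998115, plus strand) are shown because they lie just upstream of that summit, with GGAATG, the core of the site bound by TEAD factors, in capitals:
VCL: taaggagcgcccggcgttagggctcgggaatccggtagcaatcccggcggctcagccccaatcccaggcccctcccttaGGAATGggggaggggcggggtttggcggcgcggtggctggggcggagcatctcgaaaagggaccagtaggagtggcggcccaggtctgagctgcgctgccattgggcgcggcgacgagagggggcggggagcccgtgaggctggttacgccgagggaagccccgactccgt

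ACTN1, the alpha-actinin that cross-links filaments at adhesions (ENSG00000072110.16, chromosome 14, 68874128 to 68979440), ranked 56, 71 and 67 in WT and 279, 168 and 222 in SLK-KO. All 3 SLK-KO ranks were worse than all 3 WT ranks, and the median rank was 3.31 times larger in SLK-KO. ACTN4, its close relative, had no POL2 summit in any list. The talins are the adaptors that bind integrin tails. TLN2 ranked 1755, 1601 and 1909 in WT and 1145, 1552 and 1223 in SLK-KO, so that every SLK-KO rank was the better. TLN1 was listed in WT replicate 3 alone of the WT libraries, at 842, and in SLK-KO at 3520, 3209 and 3662. Its summits lay between 518 bp upstream and 40 bp downstream of the canonical TSS. The summit 518 bp upstream, in SLK-KO replicate 1, was nearer to the start of another coding gene.

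Filamin A cross-links filaments into orthogonal networks. The best FLNA summit ranked 382, 166 and 289 in WT and 370, 419 and 280 in SLK-KO, with overlapping groups. It did not lie at the canonical TSS: in all 6 libraries it was 3443 to 3462 bp downstream, in a coding exon and 12 to 31 bp from an internal annotated start, and no library had a summit within 1 kb of the canonical one. The canonical promoter (chrX:154374635-154374884, minus strand, RefSeq on GRCh38.p14) holds a CArG box at -94 to -85 from the start, shown in capitals:
FLNA: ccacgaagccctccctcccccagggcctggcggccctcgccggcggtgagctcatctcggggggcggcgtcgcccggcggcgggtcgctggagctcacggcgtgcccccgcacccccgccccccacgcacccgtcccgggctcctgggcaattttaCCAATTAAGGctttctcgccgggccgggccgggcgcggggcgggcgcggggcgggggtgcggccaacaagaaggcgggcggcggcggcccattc

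The best rank of any plaque or signalling gene was 1051, held by PARVA in SLK-KO replicate 1. PARVA and LIMS1, which encode parvin and PINCH, partners of the pseudokinase ILK, ranked from 1051 to 3005 and from 1296 to 4306. Zyxin, which is recruited to stretched filaments, had ZYX ranks of 3052, 3436 and 1754 in WT and 6753, 3829 and 3887 in SLK-KO, all of the latter worse. PTK2, which encodes focal adhesion kinase, ranked 5653, 5035 and 5588 in WT and 6853, 4235 and 4569 in SLK-KO. The scaffold BCAR1 was missing in WT replicate 2 and otherwise ranked from 3443 to 6987. ILK ranked 5791 and 7242 in WT replicates 1 and 3, was not listed in replicate 2, and ranked 8349, 8337 and 5646 in SLK-KO, so it was in none of the lists of equal length. In WT replicate 1 and SLK-KO replicates 2 and 3 the summit was nearer to another coding gene's start. Paxillin, the scaffold that marks nascent adhesions, had PXN promoter summits in replicates 1 and 3 of each genotype, at 12108 and 5003 in WT and 13487 and 3643 in SLK-KO. Those of replicate 1 lay near internal starts, 50439 bp (WT) and 15197 bp (SLK-KO) downstream of the canonical TSS. Those of replicate 3 lay 142 and 155 bp downstream of it. The tensin TNS3 ranked from 2808 to 4458, and TNS1 had no summit in any list. In SLK-KO replicate 1 the best TNS3 summit lay near an internal start, 128867 bp downstream of the canonical TSS.

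Of the ERM genes, which encode known substrates of SLK, EZR ranked 300, 396 and 230 in WT and 295, 340 and 394 in SLK-KO. These ranges overlapped almost completely. The ezrin summits lay 1160 to 1242 bp downstream of the canonical TSS and 19 to 101 bp from another annotated start. The RefSeq start of EZR also lies downstream of the canonical TSS, by 1133 bp, and so near these summits. They were in an intron or a 5′ UTR, and no library had another promoter summit for the gene. RDX, which encodes radixin, ranked 5447 and 6068 in WT replicates 1 and 3, was not listed in WT replicate 2, and ranked 4589, 3209 and 5309 in SLK-KO. MSN, which encodes moesin, ranked 3687 and 5501 in the same WT libraries and 3353, 4306 and 1559 in SLK-KO. Both genes were thus without a summit only in the shortest list. Where they were listed, the SLK-KO ranks of RDX were the better in all 3 libraries, while those of MSN overlapped the WT ones, and RDX was not split with equal lengths because 3 of its 5 ranks fell past 5047.

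ACTB, the gene of cytoplasmic beta-actin, ranked 49, 56 and 51 in WT and 56, 59 and 57 in SLK-KO. The groups met at rank 56, and the summits lay 34 to 71 bp downstream of the canonical TSS. ACTG1, the gene of gamma-actin, had no summit in any of the 6 lists, within the gene or near its starts. The nearest POL2 summits of the 6 lists lay 164054 bp and 9069 bp from the ends of ACTG1. For ACTN4 they lay 236269 bp and 300328 bp away, in an interval of 620536 bp without a summit that holds 19 coding genes, HNRNPL, EIF3K and SIRT2 among them. For TNS1 the distances were 521528 bp and 183099 bp. Of the 82556 intervals between neighbouring POL2 summits, 975 were at least as long as that around ACTN4. The absence of a summit is not read as absence of polymerase. The ACTG1 promoter (chr17:81512800-81513049, minus strand, RefSeq on GRCh38.p14) is shown with its CArG box, at -94 to -85, in capitals:
ACTG1: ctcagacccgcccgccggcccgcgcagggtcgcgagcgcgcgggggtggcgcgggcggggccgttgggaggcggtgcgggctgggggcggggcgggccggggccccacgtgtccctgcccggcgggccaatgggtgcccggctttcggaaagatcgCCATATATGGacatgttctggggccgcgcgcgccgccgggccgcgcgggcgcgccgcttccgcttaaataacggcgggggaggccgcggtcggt

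Among the myosin II genes, MYH9, the heavy chain of non-muscle myosin IIA, ranked 293, 234 and 251 in WT and 476, 608 and 401 in SLK-KO, without overlap. The regulatory light chain gene MYL12A ranked 108, 172 and 96 in WT and 181, 137 and 160 in SLK-KO, with overlap. Its neighbour MYL12B ranked 327, 460 and 391 in WT and 348, 551 and 332 in SLK-KO, also with overlap. The third light chain gene, MYL9, was listed in WT replicate 1 alone, at 9697. Calponin 2, which binds actin and myosin, had CNN2 ranks of 4094 and 2889 in WT replicates 1 and 3 and 2903, 3922 and 4674 in SLK-KO. Its summits lay 27 to 104 bp downstream of the canonical TSS, and the promoter (chr19:1026358-1026607, plus strand, RefSeq on GRCh38.p14) holds a CArG box at -89 to -80:
CNN2: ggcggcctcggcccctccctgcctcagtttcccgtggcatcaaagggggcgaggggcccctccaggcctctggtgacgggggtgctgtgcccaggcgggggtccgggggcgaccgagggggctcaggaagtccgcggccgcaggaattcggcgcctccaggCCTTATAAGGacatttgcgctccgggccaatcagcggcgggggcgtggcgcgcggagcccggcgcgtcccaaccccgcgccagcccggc

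Tropomyosins, which coat actin filaments, are made as long and short forms from alternative starts. TPM4 (ENSG00000167460.17, chromosome 19, 16067021 to 16103002) ranked 400, 613 and 940 in WT and 215, 349 and 187 in SLK-KO, so that all 3 SLK-KO ranks were better, with a median rank 0.351 times that of WT. The best summit lay 8913 to 8934 bp upstream of the canonical TSS and 23 to 44 bp downstream of another annotated start of the gene in all 6 libraries. A summit within 1 kb of the canonical TSS itself was listed in SLK-KO replicate 1 alone, at rank 11094. TPM1 summits lay 5787 to 5854 bp downstream of the canonical TSS, near an internal start, at rank 16105 in WT replicate 1 and 4240, 6752 and 8210 in SLK-KO. TPM2 was listed at 10044 in WT replicate 1 and at 7332 and 9843 in SLK-KO replicates 1 and 2.

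Cofilin and profilin drive filament turnover. CFL1, the severing factor, ranked 150, 193 and 139 in WT and 289, 308 and 279 in SLK-KO. Each SLK-KO rank was worse than each WT rank, and the summit stayed 23 to 48 bp downstream of the canonical TSS. PFN1 was missing in WT replicate 2 and ranked from 2302 to 4618 in the other libraries.

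The next group covers small GTPases that govern contractility and their effector kinases. ROCK2 (ENSG00000134318.16, chromosome 2, 11179759 to 11348330) ranked 732, 841 and 973 in WT and 3588, 4904 and 3861 in SLK-KO. The median rank was 4.59 times larger in SLK-KO, the largest ratio among the 20 genes ranked in all lists of equal length, and the groups were far apart. Its position was less stable, from 646 bp upstream to 630 bp downstream of the canonical TSS, and the summits used come from several places along the promoter. ROCK1 ranked from 2807 to 5738 with overlapping groups. RHOA ranked 716, 828 and 384 in WT and 910, 1150 and 1013 in SLK-KO, all of the latter worse. Its summit, 257 to 274 bp upstream of the canonical TSS, was nearer to the start of another coding gene in all 6 libraries, so which of the genes the ranks belong to cannot be told apart. RHOB ranked 354, 353 and 242 in WT and 350, 240 and 348 in SLK-KO, with overlap, and RHOC ranked from 2776 to 5820.

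SRF (ENSG00000112658.8, chromosome 6, 43171269 to 43181506) ranked 3163, 3272 and 1909 in WT and 10281, 5859 and 8977 in SLK-KO. Every SLK-KO summit fell past the length of the shortest list, which is the split given above, while in full lists the summit was listed in all 6 libraries, 39 to 317 bp downstream of the TSS. The SRF promoter (chr6:43171019-43171268, plus strand, RefSeq on GRCh38.p14) holds 2 CArG boxes, at -30 to -21 and at -10 to -1, shown in capitals because SRF is known to bind its own promoter:
SRF: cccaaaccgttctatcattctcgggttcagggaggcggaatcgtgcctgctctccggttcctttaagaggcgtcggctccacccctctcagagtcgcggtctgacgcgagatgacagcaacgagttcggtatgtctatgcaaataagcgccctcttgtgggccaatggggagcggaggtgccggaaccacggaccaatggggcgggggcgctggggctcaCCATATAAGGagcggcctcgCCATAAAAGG

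Promoter windows of 300 bases (250 before to 50 after the RefSeq start) were at hand for 38 of the 44 genes and 15309 protein-coding genes. ACTB, PTK2, PARVA, MYL9, ITGA3 and ITGB4 were not matched. Both strands were searched. A CArG box was found in 4 of the 38 (10.5%), namely ACTG1, FLNA, CNN2 and SRF, and in 1.17% of all. GGAATG was found in 5 (13.2%), VCL, MYH9, PFN1, ITGA5 and ITGB1, and in 11.3% of all. The E-box CACGTG, the site of MYC and its partner MAX, was found in 3 (7.89%), MSN, ACTG1 and ILK, and in 8.88% of all. Of the 4 genes with a CArG box, 2 had a POL2 summit within 1 kb of the canonical TSS in at least 5 libraries (CNN2 and SRF), and FLNA and ACTG1 had none there. The median GC content of the 38 promoters was 74.3%, against 63.7% for all.

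Ranks were then compared across the whole set. In lists of equal length, ACTN1, ZYX, MYH9, CFL1, RHOA, ROCK2 and SRF ranked worse in all 3 SLK-KO libraries than in all 3 WT libraries, 7 of 44 genes (15.9%), against 643 of 20033 (3.21%) over all protein-coding genes. TLN2 and TPM4 ranked better in all 3, 2 of 44 (4.55%), against 918 (4.58%). Many coding genes were in none of the lists, so the same count was made for genes ranked in all 6. There 5 of 20 genes (25%) ranked worse in SLK-KO, against 15.2% of 2613 coding genes, and 2 of 20 (10%) ranked better, against 15.6%. The median log2 ratio of SLK-KO to WT rank was 0.37 over the 20 genes and 0.01 over the 2613. A worse median rank in SLK-KO was found for 15 of the 20 (75%) and for 50.7% of the 2613. The count of genes ranked worse was 12 without WT replicate 2. With a 500 bp window ZYX and ROCK2 were no longer split, with canonical starts ACTN1 and TPM4 were not, and with summits given to the nearest gene RHOA was not. With lists of 0.5 times the length, ZYX and SRF were not. The count ranked better was 5 without WT replicate 3 and 4 without SLK-KO replicate 2.

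**Figure D3:**
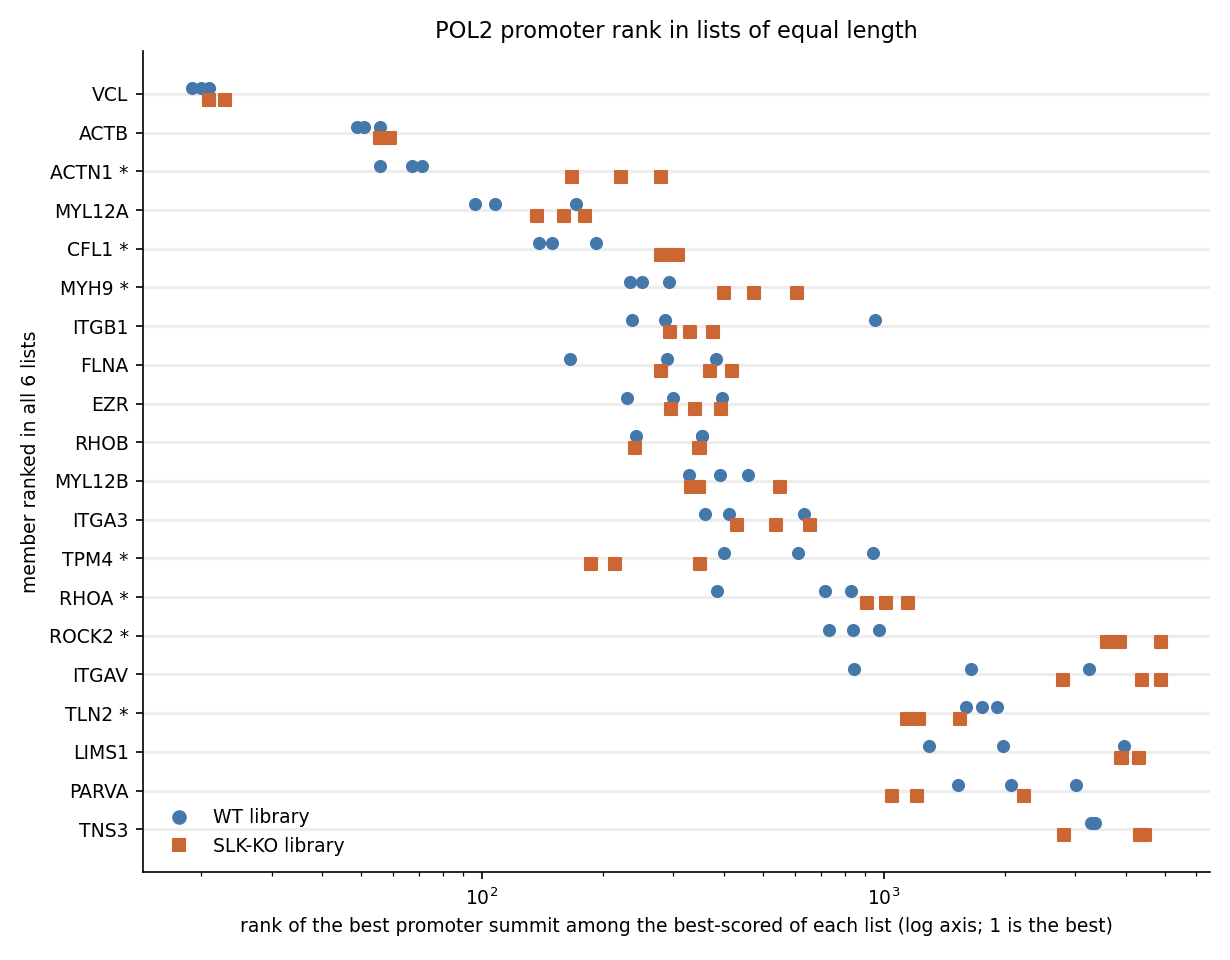
Rank of the best POL2 promoter summit among the 5047 best-scored of each library (log axis, 1 is the best) for the 20 genes ranked in all 6 lists, sorted by median rank, with WT libraries as circles and SLK-KO libraries as squares; an asterisk marks genes whose groups do not overlap. ACTN1, CFL1, MYH9, RHOA and ROCK2 lie to the right (worse) in SLK-KO, TPM4 and TLN2 to the left, and VCL and ACTB hardly move.

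The position of the best promoter summit was read from the canonical TSS in the 27 genes listed in all 6 libraries. The median position was 41.5 bp downstream, against 34.5 bp over 3615 coding genes. Summits of the same gene spread over a median of 201 bp between libraries, against 118 bp for all, and the genes had a mean of 1.80 promoter summits per library, against 1.25. In 11 of the 27 (40.7%) all 6 summits lay within 100 bp, against 45.0% of all. The set thus had more promoter summits per library and a wider median spread of the best one, with no test made of either. Both were read at any annotated start, of which the 44 genes have a median of 12.5, against 5 over all protein-coding genes. How much of either difference comes from the number of starts was not tested.

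In ACTN1, RHOC and ITGA3 all 3 SLK-KO summits lay downstream of all 3 WT summits, 3 of 27 (11.1%), against 5.17% of coding genes. ITGA2 was split upstream, 1 of 27 (3.70%), against 6.22%. The ACTN1 summit lay 103, 1178 and 80 bp downstream of the canonical TSS in WT and 1233, 1222 and 1234 bp in SLK-KO. WT replicates 1 and 3 were in the 5′ UTR and the other 4 libraries in an intron near another annotated start. WT replicate 2 thus lay with the SLK-KO libraries, and the split of this gene rests on the short distance between 1178 and 1222 bp. ITGA3 summits lay 815, 817 and 473 bp upstream in WT and, in SLK-KO, 414 bp upstream, 389 bp downstream and 112 bp downstream. RHOC summits lay 64, 1524 and 1518 bp downstream in WT and 1739, 1647 and 1526 bp in SLK-KO, so that the groups nearly met, at 1524 and 1526 bp. ITGA2 summits lay 93, 102 and 92 bp downstream in WT and, in SLK-KO, 38 bp downstream, 23 bp downstream and 83 bp upstream. With a 500 bp window RHOC and ITGA3 no longer had a summit in all 6 libraries and ACTN1 alone was split downstream. With a score of at least 5 the same held for ITGA2, and no gene was split upstream. The count split downstream was 5 without WT replicate 2 and 6 without SLK-KO replicate 1. The count split upstream was 3 without WT replicate 2, and 2 without WT replicate 3, SLK-KO replicate 1 or SLK-KO replicate 2.

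**Figure D4:**
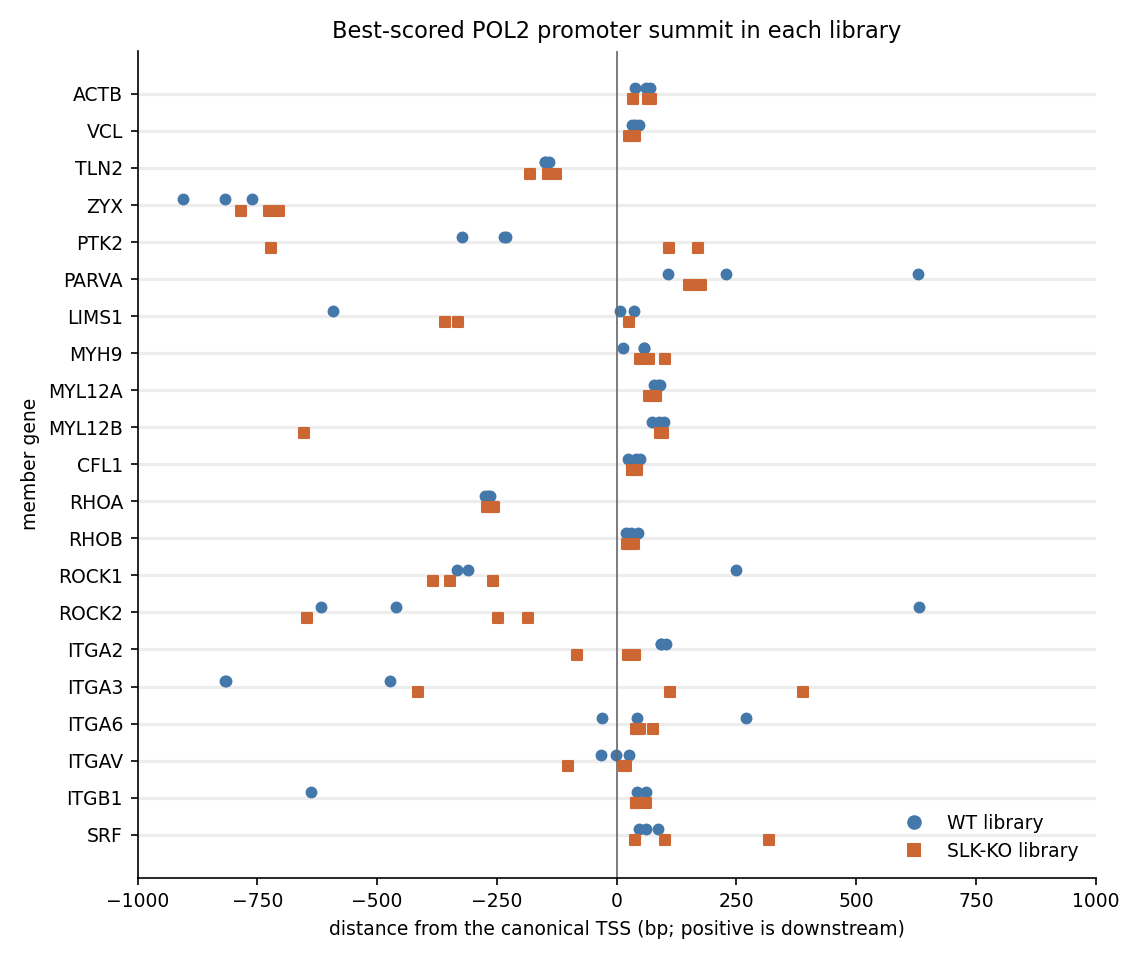
Distance of the best-scored POL2 promoter summit from the canonical TSS (bp, positive is downstream) in each library for 21 of the 27 genes with a summit in all 6 libraries, WT as circles and SLK-KO as squares; the 6 genes with a best summit over 1 kb away in some library (ACTN1, EZR, FLNA, RHOC, TNS3 and TPM4) are not shown. VCL, ACTB, CFL1 and MYL12A summits lie close together in all 6 libraries, while those of ROCK2 and ITGA3 spread over more than 1 kb.

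Inside the genes, more than 1 kb from every annotated start, POL2 summits were listed for 26 of the 44 genes (59.1%), against 21.4% of all protein-coding genes. Among genes with a promoter summit in all 6 libraries the shares were 20 of 27 (74.1%) and 44.8%. These shares take no account of gene length, and how much of the difference comes from length was not tested. Per 10 kb of gene, the median number of body summits was 0.0743 for the 44 genes and 0 over all protein-coding genes. The 6 lists held 357 such summits in all, of which 242 (67.8%) were in introns away from other genes' promoters and 7 (1.96%) lay at the promoter of another coding gene. For some genes the annotated span reaches past the canonical transcript, and all 46 such summits of RDX, all 9 of CFL1, all 5 of ACTB and, of the 30 of ITGB1, 11 upstream and 11 downstream lay outside it. With summits inside the canonical transcript alone, 23 of the 44 genes (52.3%) had one, against 18.7% of all protein-coding genes, and among genes with a promoter summit in all 6 libraries 18 of 27 (66.7%), against 39.9%. Counted over the whole annotated span, there were 95, 31 and 40 by library in WT and 76, 62 and 53 in SLK-KO. In lists of equal length there were 6, 31 and 10 in WT and 4, 6 and 7 in SLK-KO, so that WT replicate 2, whose whole list is used there, stood above the rest.

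Per 10 kb of gene, RHOB had the most body summits (3.52 on average over 6 libraries), followed by PXN, RHOC, ITGA3 and CNN2 (1.36, 1.32, 1.30 and 0.935). RHOB, a short gene with a single exon, had 2, 0 and 1 summits in WT and 0, 1 and 1 in SLK-KO, all in its 3′ UTR. PXN had 12, 0 and 6 in WT and 10, 9 and 8 in SLK-KO, and 42 of these 45 were in introns. In replicate 1 the best of them outranked the promoter summit, at 4447 against 12108 in WT and 2829 against 13487 in SLK-KO. In replicate 3 it ranked behind the promoter summit, at 5488 against 5003 in WT and 3840 against 3643 in SLK-KO. RHOC had 1, 0 and 1 in WT and 1 in each SLK-KO library, and CNN2 had 3, 0 and 1 in WT and 1 in each SLK-KO library. ITGA3 had 5, 5 and 3 in WT and 3, 6 and 5 in SLK-KO. None of these 5 genes was split by genotype, since every WT range overlapped the SLK-KO one. EZR had 5, 1 and 4 in WT and 7, 2 and 4 in SLK-KO, all in introns. RDX had 20, 5 and 6 in WT and 8, 3 and 4 in SLK-KO, but all 46 lay downstream of the canonical transcript, in an annotated span of 432 kb that reaches far past it, so they are not read as polymerase on radixin. MSN had 1, 0 and 0 in WT and 2, 0 and 0 in SLK-KO.

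PTK2 was the single gene whose body counts were split with full lists. The focal adhesion kinase gene had 2, 0 and 0 body summits in WT and 5, 5 and 3 in SLK-KO, all in introns, or 0.667 ± 1.15 and 4.33 ± 1.15 (SD, n = 3 each). Over all protein-coding genes, 365 (1.82%) were split this way and 4 (0.02%) the other. In lists of equal length none of the 44 genes was split either way (0.13% of all each way). With a window of 500 bp, with the canonical start alone or with a score of at least 5, PTK2 was no longer split. The count was 5 without WT replicate 1, and 2 without SLK-KO replicate 2 or SLK-KO replicate 3. The 2 genes split the other way without WT replicate 3 were ACTN1 and VCL, and RDX was split that way without SLK-KO replicate 1. With equal lengths, leaving out WT replicate 1 split 2 genes towards WT (VCL and MYH9), leaving out WT replicate 3 or SLK-KO replicate 3 split 1 (TNS3 and CFL1), and leaving out SLK-KO replicate 2 split ITGB1 towards SLK-KO.

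**Figure D5:**
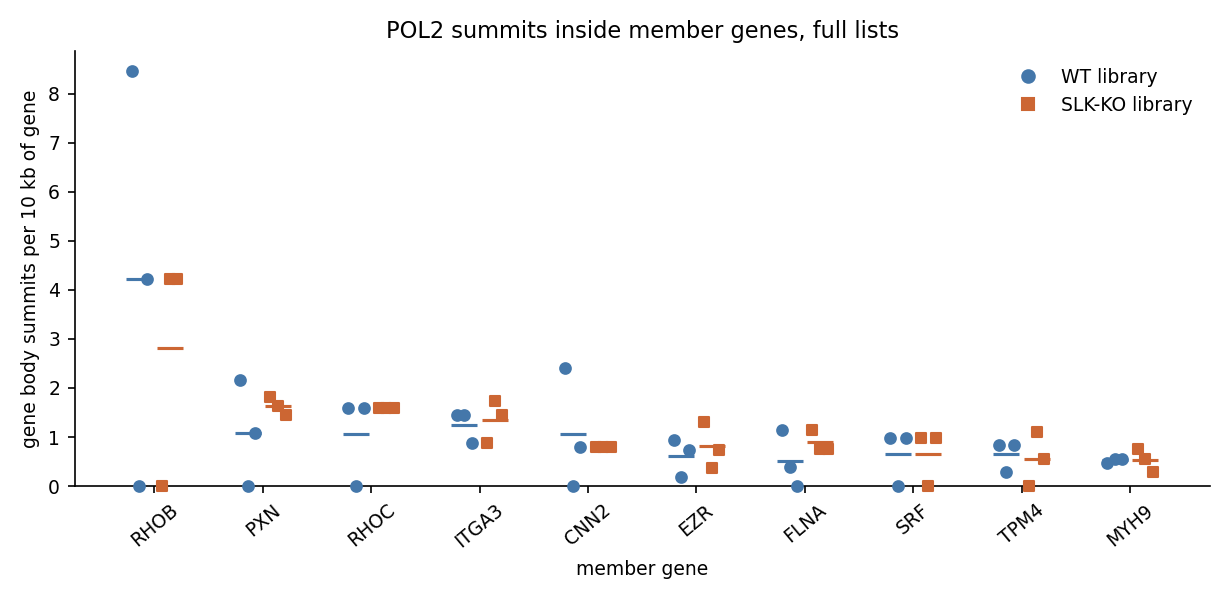
POL2 summits inside the gene, more than 1 kb from every annotated start, per 10 kb of gene in each library with full lists, for the 10 genes with the highest mean; circles are WT libraries, squares SLK-KO libraries, and short lines the means of 3. WT and SLK-KO libraries overlap for each of the 10, and RHOB reaches its high value from 2 summits in a short gene.

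MYC was rarely found at these genes. No WT library had a MYC promoter summit at any of them, and each SLK-KO library had one at 4 of the 44 (9.09%). The shares of all protein-coding genes were 1.83%, 1.04% and 1.39% in WT and 5.49%, 6.38% and 4.66% in SLK-KO. Among the 201 best-scored summits of each list, none was at one of the 44 genes in either genotype, against about 1.0% of coding genes, from 0.983% to 1.08%. Over the 6 lists, 9 genes (20.5%) had a MYC promoter summit in at least 1 library, against 9.66% of all. These were ILK in 3 SLK-KO libraries, SRF in 2, and ACTN1, VCL, TLN2, LIMS1, TPM4, ITGA3 and ITGB1 in 1 each. The summits of ACTN1, TPM4 and TLN2 lay 1382, 2490 and 367651 bp downstream of the canonical TSS, near other annotated starts. The 2 shares count any annotated start, of which these genes have more (a median of 12.5, against 5 over all protein-coding genes).

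ILK was the single gene with a MYC promoter summit in 3 SLK-KO and 0 WT libraries, 1 of 44 (2.27%), against 175 of 20033 (0.874%), and no coding gene was split the other way (0%). With equal lengths no member was split, against 0.0349% of all towards SLK-KO and 0.03% towards WT. The ILK summit ranked 459 of 1218, 831 of 1420 and 556 of 988, so that each rank was past the length of the longest WT list, 365. The summits lay 75, 88 and 235 bp upstream of the nearest ILK start and 17, 4 and 106 bp from the start of RRP8, the neighbouring gene on the other strand. All 3 were nearer to RRP8, and ILK was no longer split when summits were given only to the nearest gene. Without SLK-KO replicate 3, SRF was split as well. The SRF summits ranked 726 and 482 in SLK-KO replicates 1 and 2 and lay 88 and 95 bp downstream of the TSS, in the 5′ UTR. The 7 other promoters ranked between 373 (VCL, SLK-KO replicate 3) and 1207 (ITGA3, SLK-KO replicate 2) in the single list that held each, and a further MYC summit lay in an intron of TNS3.

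CACGTG was looked for within 100 bp of these MYC summits. It was found at 5 of the 13 summits and at 3 of the 10 genes, ILK (all 3 libraries), ITGB1 and TNS3. The 3 ILK summits share the same element and lay nearer to the start of RRP8. The share of all MYC summits with CACGTG this close was not counted, so 5 of 13 is not read as an excess. The ILK element lies at chr11:6603532-6603561, the ITGB1 one at chr10:32958808-32958837 and the TNS3 one at chr7:47362041-47362070 (GRCh38, plus strand). The E-box is in capitals, and the sites are shown because they are all the E-boxes found within 100 bp of a MYC summit at these genes:
ILK: cccgctcttctcCACGTGcacagcgctcct
ITGB1: ggggccaaaaacCACGTGgtccttctggaa
TNS3: caaaaaacccacCACGTGcaggctgaaacc

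In 80 further genes of adhesion and actin regulation, a POL2 promoter summit was listed in all 6 libraries for 33 and in at least 1 for 66. Over all protein-coding genes the shares were 18.05% and 53.7%. By library, 42.5% to 78.75% of the 80 had such a summit with full lists, against 19.1% to 49.0% of all protein-coding genes. A share above that of all protein-coding genes was thus not particular to the genes described above. FLNC, KANK1, ACTA2 and PARVB, 4 of 80 (5%), were listed in 3 SLK-KO and 0 WT libraries with full lists, against 1.54% of all protein-coding genes, at ranks from 6056 to 14441, all past the shortest list. With equal lengths ARPC1B and ARPC2, subunits of the Arp2/3 complex that branches filaments, were listed in 3 WT and 0 SLK-KO libraries, 2 of 80 (2.5%) against 0.454%. Of the 80, 7 (8.75%) ranked worse in all 3 SLK-KO libraries, against 3.21% of all, and 4 (5%) better, against 4.58%. Among those ranked in all 6 lists, 4 of 27 (14.8%) ranked worse and 3 (11.1%) better, against 15.2% and 15.6% of coding genes, so that the share ranked worse was near the background. The genes of the 80 ranked worse were FERMT2, ARPC1B, ARPC2, ACTR2, PDLIM5, PDLIM7 and FHL2. Those ranked better were PAK2, CALD1, TAGLN2 and NEXN. As examples of each direction, FHL2, a LIM protein of adhesions, ranked 329, 243 and 371 in WT and 767, 777 and 720 in SLK-KO. TAGLN2 ranked 185, 221 and 304 in WT and 120, 115 and 175 in SLK-KO. In body counts with full lists, SSH1 and NEXN were split towards SLK-KO, 2 of 80 (2.5%), near the 1.82% of all protein-coding genes. SSH1, the phosphatase that activates cofilin, had 2, 0 and 1 body summits in WT and 4, 4 and 3 in SLK-KO. With equal lengths SSH1 alone was split this way, 1 of 80 (1.25%), against 0.13% of all. MYC promoter summits were listed in at least 2 libraries for 5 of the 80, FERMT1, FERMT2, DIAPH1, PFN2 and TAGLN2. Over all protein-coding genes, 2.08%, 1.35%, 0.629%, 0.494% and 0.494% had one in 2, 3, 4, 5 and 6 libraries. The 5 genes are therefore not read as an excess. PFN2, a profilin gene, was in all 6 MYC lists, at ranks 24, 22 and 76 in WT and 137, 51 and 363 in SLK-KO.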

How the data were processed

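POL2 and MYC ChIP-seq of WT and SLK-KO PC-3 cells was analysed in 12 libraries, 3 of each antibody and genotype. No use was made of the 6 IgG and 2 Input libraries. Per the submitters' processing notes, reads were handled with nf-core/chipseq 2.1.0 against GRCh38.p14, with Trim Galore 0.6.7, BWA 0.7.18-r1243 and MACS3 3.0.1, and the control used in peak calling is not given in the sources used here. The deposited score of each summit was read as the authors' −log10 q-value, since the lowest score of every list lay at or just above 1.30103, which is −log10 of 0.05. Scores were used only to rank and filter summits within a list. Depth is unknown.

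Summits were assigned to protein-coding genes of GENCODE 44. A promoter summit lay within 1 kb of any annotated start, a body summit inside the gene and more than 1 kb from all its starts. Tied summits shared the better rank, and no gene of the set was dropped by a tie at the end of an equal-length list. A gene with no summit there took the rank after the last. A split was called where all 3 WT libraries lay above or below all 3 SLK-KO libraries, on the whole table of 20033 genes. The exact permutation test over libraries (two-sided) was computed for the 44 genes alone. The rules that call a split were run on simulated presence, counts and ranks per gene with known changes. In the presence data the changed genes were set as complete splits, so their recovery was fixed in advance. The assignment of summits to genes was checked on planted positions only. The 44 genes, their role groups, the 80 further genes and the motifs were chosen with earlier results of these data known. Values in every library were given for EZR, RDX, MSN, ACTB, VCL and SRF, for genes split in any comparison, with MYC in at least 2 libraries or with no POL2 summit, and for the 5 best ranked and the 5 richest in body summits; ranks of some others were added after their values were seen. The comparison of positions, and the settings that leave out body summits at other genes' promoters or outside the canonical transcript, were also added then. Alternatives covered the window, canonical starts, a score of at least 5, nearest genes, list length, leaving out each library and a replicate block. The tools were matplotlib 3.10.9, pandas 2.3.3, numpy 2.4.6, scipy 1.17.1 and Python 3.11.15.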

Additional observations from a re-analysis of the deposited data

How the results depend on the processing

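Under the alternatives, 168 values of the counts stayed within 1.5 times (or 1 SD) of the one reported and 41 did not. No result changed sign. Of the named genes' values, 169 kept their split and 12 lost it. These belonged to PTK2, ZYX, ROCK2, ACTN1, TPM4, RHOA and ILK under the settings named in the report, and to ZYX and SRF with lists of 0.5 times the length. RHOC and ITGA3 (500 bp window) and ITGA2 (score of at least 5) had no summit in all 6 libraries under those settings, which ended their position splits without giving a value. A score of at least 5 gave 1 gene with POL2 promoter summits in 3 SLK-KO and 0 WT libraries (TPM1, against 0) and 0 split upstream by position (against 1). Body counts split towards SLK-KO with full lists fell from 1 to 0 with a 500 bp window, with canonical starts and with a score of at least 5, and with equal lengths were 1 with canonical starts. Genes ranked better in SLK-KO numbered 1 with canonical starts, and genes split downstream 1 with a 500 bp window. Giving MYC summits to the nearest gene left 0 genes split. The difference in MYC genes per library, 4, was 3 with canonical starts and 0 with equal lengths.

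Leaving out 1 library gave these ranges: POL2 promoters towards SLK-KO 0 to 1 with full and 0 to 2 with equal lists, towards WT with equal lists 1 to 2; body counts up 1 to 5 and down 0 to 2 with full lists, up 0 to 1 and down 0 to 2 with equal lists; ranks better 2 to 5 and worse 7 to 12; MYC 1 to 2; positions downstream 3 to 6 and upstream 1 to 3.

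Whether same-numbered libraries of the genotypes were processed together is not given in the sources used here. Their deviations correlated at 0.0525, -0.00875 and -0.0157 for POL2 and 0.0223, 0.0520 and -0.0193 for MYC. Such values cannot show whether the libraries were paired. With the replicate block, genes ranked better in SLK-KO were 5 and worse 13, body counts split towards WT with full lists were 2, and genes split upstream were 4.

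Without counts of reads, a worse rank is a place in a list and not an amount of polymerase, and a summit below the authors' threshold leaves no trace.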
